A study of Mus musculus with 14 samples.

Results

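The colons of mice that lack the glucocorticoid receptor (GR) in the intestinal epithelium were compared with those of control mice after dextran sulfate sodium (DSS), a polymer that damages the colonic epithelium and causes colitis. The comparison used the 3 arrays labelled GR iKO_DSS and the 3 labelled Flox_DSS, which are 6 of the 14 arrays in the series, with 8 arrays from mice on regular water as the background. Each array carried Cy3-labelled total RNA from the whole colon of 1 mouse, and the 27428 of 41174 probes with signals clearly over background on 3 or more DSS arrays were ranked by the difference between the groups and by whether the groups overlapped. All mice were C57BL/6 females aged 4 to 6 months on a chow diet, and the DSS mice drank 2.5% DSS for 7 days.

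In Flox mice, which served as controls, loxP sites flank part of the GR gene, Nr3c1. GR iKO mice carry the same floxed alleles together with Cre recombinase under the Villin promoter, which is active in epithelial cells of the intestine, so that Nr3c1 remains intact in immune, muscle, nerve and stromal cells of the same tissue. Glucocorticoids diffuse into the cell and bind GR, which then moves to the nucleus, activates genes such as Fkbp5 and Tsc22d3, and represses inflammatory genes driven by NF-kB and AP-1. In colitis, epithelial and myeloid cells release chemokines that draw neutrophils and monocytes into the mucosa, while matrix metalloproteinases remodel the tissue around ulcers. Whole colon holds epithelium, immune cells, stroma and the muscle wall together, so in these bulk samples more or fewer cells of a type and more or less RNA per cell cannot be told apart.

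Values are log2 processed signals minus the 75th percentile of the array, called levels here, and differences are GR iKO DSS minus Flox DSS on that scale. Values by array are given in the order of Flox DSS replicates 1, 2 and 4 and then GR iKO DSS replicates 1, 3 and 4. Nr3c1, the targeted gene, was lower on every GR iKO DSS array with its brightest probe, which stood at 1.27, 1.46 and 1.07 in Flox DSS and at 0.48, 0.45 and 0.37 in GR iKO DSS. That is 56.1% of the Flox DSS level (exact two-sided permutation p = 0.1, the smallest p that 3 against 3 arrays allow). A pair of further probes gave 57.1% and 55.2% with groups that did not overlap, whereas the dimmest of the 4 probes gave 75.7% with overlapping groups. On water the brightest probe lay between 1.05 and 1.38 in Flox and between 0.19 and 0.57 in GR iKO, so all 7 GR iKO arrays were below all 7 Flox arrays. Whether any of these probes lies within the deleted part of Nr3c1 is not given in the sources used here.

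The DSS arrays of one genotype differed in marker genes of several cell types. Log2 signals of Flox DSS replicate 4 correlated with those of GR iKO DSS replicate 3 at r = 0.966 across probes, above its own group's 0.962 and 0.957, and GR iKO DSS replicate 3 reached 0.956 and 0.961 within its group. Genes of pancreatic acinar cells, which make digestive enzymes, had a median level of 5.46, 3.51 and 9.47 on the Flox DSS arrays and of −3.26, 6.18 and −3.22 on the GR iKO DSS arrays. They took 7.43% of the summed signal on Flox DSS replicate 4, against between 0.0196% and 1.43% on the other 5 DSS arrays. The acinar list was added after the values had been seen, and all of its 17 measured genes overlapped between the groups. The adipocyte genes averaged 1.79, 3.09 and 2.66 in Flox DSS and −0.12, 2.30 and −0.10 in GR iKO DSS, and the B and plasma cell genes averaged −3.76, −3.07 and −0.52 against −0.36, 0.12 and −2.88. The plots of cell type genes on each array show these shifts, whose part in the results below was not tested. List counts that moved by 5 genes or more without 1 of the 6 DSS arrays are given below with and without it.

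**Figure D1:**
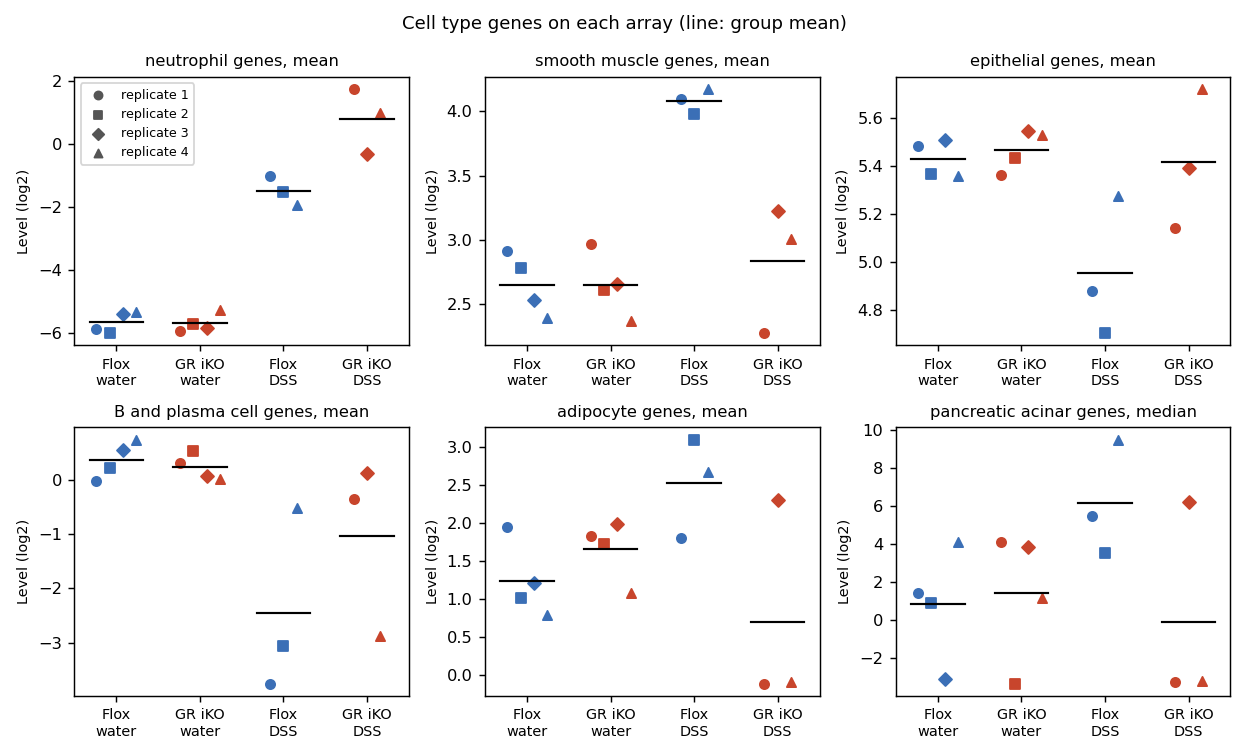
Mean (for pancreatic acinar genes, median) level of 6 gene lists on each of the 14 arrays, as log2 signal minus the array's 75th percentile, by genotype and treatment, with each symbol 1 array and the line the group mean. Neutrophil genes were higher and smooth muscle genes lower on every GR iKO DSS array than on every Flox DSS array, whereas B cell, adipocyte and acinar genes did not separate the genotypes, and with spike-in scaling the median smooth muscle difference was −0.04.

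No probe passed the test between the genotypes on DSS. In limma's fit of the 6 arrays, 0 of 27428 probes (0.0%) were called at an adjusted p under 0.05, the smallest adjusted p was 0.199, and 4763 probes had an unadjusted p under 0.05. With 3 arrays per group, the median SD per probe was 0.24 in Flox DSS and 0.33 in GR iKO DSS. One fit of all 14 arrays with a shared spread called 4036 probes, 1943 of them higher in GR iKO DSS, but there the water arrays set much of the spread, and 9 probes were called when water and DSS arrays had separate weights, a fit added after the data had been seen. Array quality weights called 2875 probes, 956 of them higher. P values measure only the spread between these mice, and the position of an array on its slide was the same for every array of a group, so position and group cannot be told apart.

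Genes were therefore described by size and by overlap, with no test. All GR iKO DSS arrays lay above all Flox DSS arrays for 3154 probes (11.5% of those tested) and below them for 3277 (11.9%). With a difference of at least 2-fold as well, 608 probes were higher (2.22%) and 698 lower (2.54%). Among probes without overlap, 88 higher and 27 lower ones reached 4-fold and 25 and 3 reached 8-fold, whereas the 20 largest lower differences over all genes came from groups that overlapped. The gap, which is the distance between the nearest arrays of the groups, exceeded 1 log2 unit for 56 higher and 19 lower probes. By gene, with the brightest probe standing for each of 14876 genes, 1609 were higher without overlap (10.8%) and 2069 lower (13.9%), and the median difference was 0.02 over all probes. Fewer arrays leave more genes free of overlap by construction, so these shares were between 12.4% and 22.7% higher and between 15.9% and 23.1% lower with 1 array left out, and 34.6% and 29.1% without both Flox DSS replicate 4 and GR iKO DSS replicate 3. Scaling to the spike-in transcripts instead added 1.26 to every difference and moved the median of all probes to 1.28. A gene that is lower by less than 1.26 therefore turns positive under that scaling while it keeps its place among the probes, and values under it are also given relative to that median. Of the 58 named lower genes 24 turned in this way. None of the 43 genes named by rank changed sign under any setting, but much of this was set by their choice. Their groups do not overlap, so leaving out an array, a block or array weights cannot turn them. The lower ones all differ by more than 1.26 in size, so spike-in scaling cannot turn them either. Only the quantile, normexp and value table settings could have done so.

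**Figure D2:**
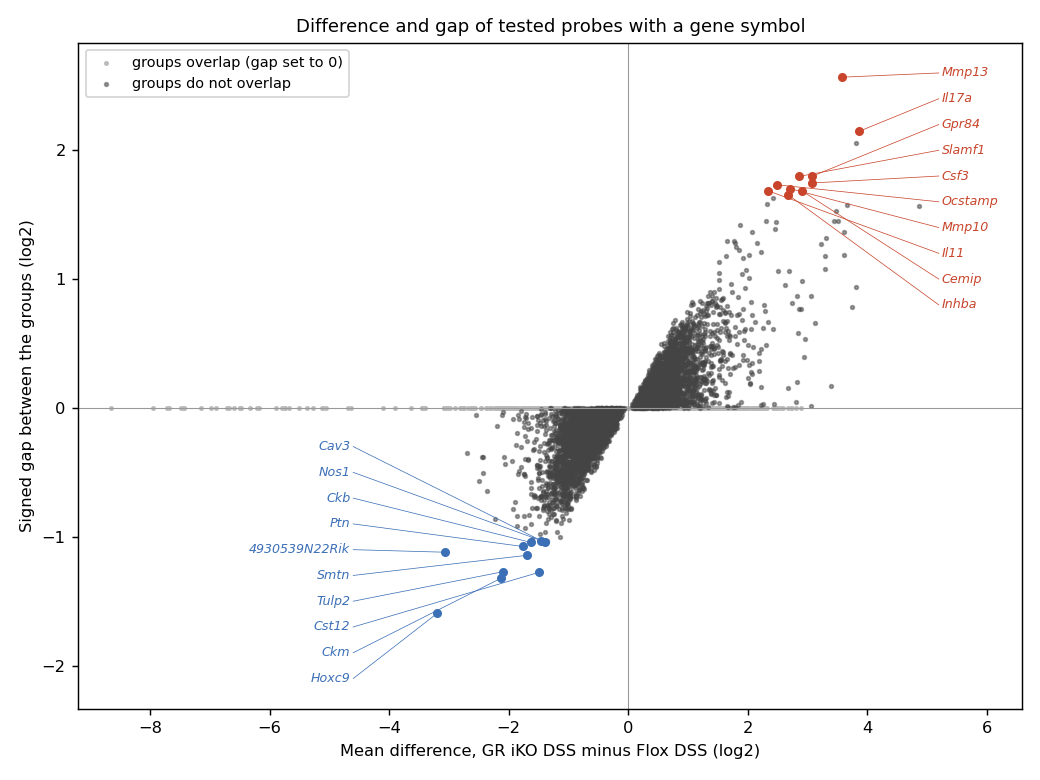
Mean difference between GR iKO DSS and Flox DSS (horizontal, log2) against the signed gap between the nearest arrays of the groups (vertical, log2, set to 0 where they overlap) for tested probes with a gene symbol, 3 arrays per group, with the 10 genes of widest gap marked in each direction. Gaps reach 2.57 for Mmp13 and −1.32 for Ckm among genes measured in both groups (Il17a, Slamf1, Hoxc9 and Tulp2 were not well above background in their dimmer group), while differences below −4 all belong to overlapping groups.

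Chemokines and growth factors that recruit neutrophils, listed with the receptors Csf3r and Cxcr2, made up the first group of genes higher in GR iKO DSS. Of 10 measured genes of this list, 7 were higher without overlap and none lower, with a median difference of 1.73. Cxcl3, a ligand of the neutrophil receptor Cxcr2, stood at −3.0, −4.43 and −4.68 in Flox DSS and at 1.63, −2.06 and −0.25 in GR iKO DSS, a difference of 3.81 (SE 0.94). Cxcl2, a second such ligand, stood at −2.24, −3.35 and −4.30 against 0.75, −1.16 and 0.41, a difference of 3.30 (SE 0.67). Both genes separated the groups by about 1 log2 unit, with replicate 1 the highest array of either genotype. Csf3, the growth factor that drives neutrophil production, had the widest gap of the group, 1.75, with levels of −3.02, −4.05 and −3.93 against 0.78, −1.26 and −1.27. Cxcl1 differed by 1.92, Csf2 by 1.48, the G-CSF receptor Csf3r by 1.53 and Cxcr2 itself by 1.30, all without overlap. Cxcl5, made largely by epithelium, had a difference of 2.47 but overlapping groups, and the platelet chemokines Ppbp and Pf4 overlapped as well, at 0.51 and −0.88. The median difference of the list was 0.52 within slide 1 and 2.28 within slide 4, the slides that held an array of each DSS group. On water the median difference of the same genes was 0.07. For Cxcl2, Cxcl3, Csf3, Csf2, Cxcr2 and Ppbp, however, the scanner software flagged no water signal as clearly over background. Cxcl1, Cxcl5, Csf3r and Pf4 were so flagged on some or all water arrays. The water median thus cannot show whether the dim genes differ between the genotypes without DSS.

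Promoter sequence is shown for the 3 chemokines because they lie together on chromosome 5 and each carries a match to the NF-kB consensus, a motif bound by the factor that GR represses. The 150 bases before the start of Cxcl1 (chr5:90891095-90891244), Cxcl2 (chr5:90903749-90903898) and Cxcl3 (chr5:90785951-90786100), all on the + strand of GRCm38.p6 in RefSeq, are given 5′ to 3′, with capitals marking the bases covered by the matches.
Cxcl1: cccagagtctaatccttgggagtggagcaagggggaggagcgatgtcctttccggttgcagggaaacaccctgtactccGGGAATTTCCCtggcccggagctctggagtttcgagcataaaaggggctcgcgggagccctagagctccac
Cxcl2: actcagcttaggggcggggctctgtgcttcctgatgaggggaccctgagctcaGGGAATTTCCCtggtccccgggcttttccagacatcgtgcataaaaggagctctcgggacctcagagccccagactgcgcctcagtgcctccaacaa
Cxcl3: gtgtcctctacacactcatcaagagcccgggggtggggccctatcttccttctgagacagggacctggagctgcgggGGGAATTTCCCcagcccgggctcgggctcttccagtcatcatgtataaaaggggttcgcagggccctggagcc
The same 11 bases, which hold 2 overlapping matches on opposite strands, begin 71, 97 and 73 bases before the start of Cxcl1, Cxcl2 and Cxcl3. Searched on both strands over 250 bases before the start, the consensus was found in 7.25% of 32851 promoters. By gene it was found for 4 of the 8 genes of this list with a promoter in the table (Cxcl1, Cxcl2, Cxcl3 and the receptor Csf3r) and for 8.23% of all genes. A match describes the letters and does not show binding.

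Neutrophil granule and surface genes were higher in GR iKO DSS in the same way. Of 15 measured, 13 were higher without overlap and 0 lower, the median difference was 2.22, and Lcn2 and Camp were the genes that overlapped, at 1.53 and 0.89. The higher genes numbered 12 among those well above background on all 6 arrays, and 10 with normexp background correction. Ngp, a neutrophil granule protein, was not well above background in Flox DSS, at −5.82, −7.21 and −7.14, and reached 0.15, −4.25 and −1.45 in GR iKO DSS, so its level was at least 11.1-fold higher (measured difference 4.87). Such bounds set the mean of the brighter group against the lowest signals that count as well above background on the dimmer arrays. With normexp background correction the Ngp difference was 1.76, below its log2 bound of 3.48. Ngp passed the background filter only through GR iKO DSS, so its lack of overlap is partly set by that filter.

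Ltf, the iron-binding granule protein lactoferrin, stood at −1.28, −2.65 and −1.92 against 2.43, 2.50 and 0.09, a difference of 3.62 (SE 0.71). S100a8 and S100a9, the subunits of calprotectin, differed by 2.84 and 2.05. For S100a9 the levels were 5.93, 5.13 and 4.41 against 7.86, 6.12 and 7.64, so GR iKO DSS replicate 3 lay only 0.19 above Flox DSS replicate 1. The same array was the lowest of its group for 12 of these 15 genes. Mmp8 (neutrophil collagenase) differed by 3.07, Clec4e (a receptor for dying cells and fungi) by 2.62 and Retnlg by 2.51, while Mpo (myeloperoxidase) differed by 0.53 with levels between −4.58 and −3.50. The list median was 0.57 within slide 1 and 3.23 within slide 4.

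**Figure D3:**
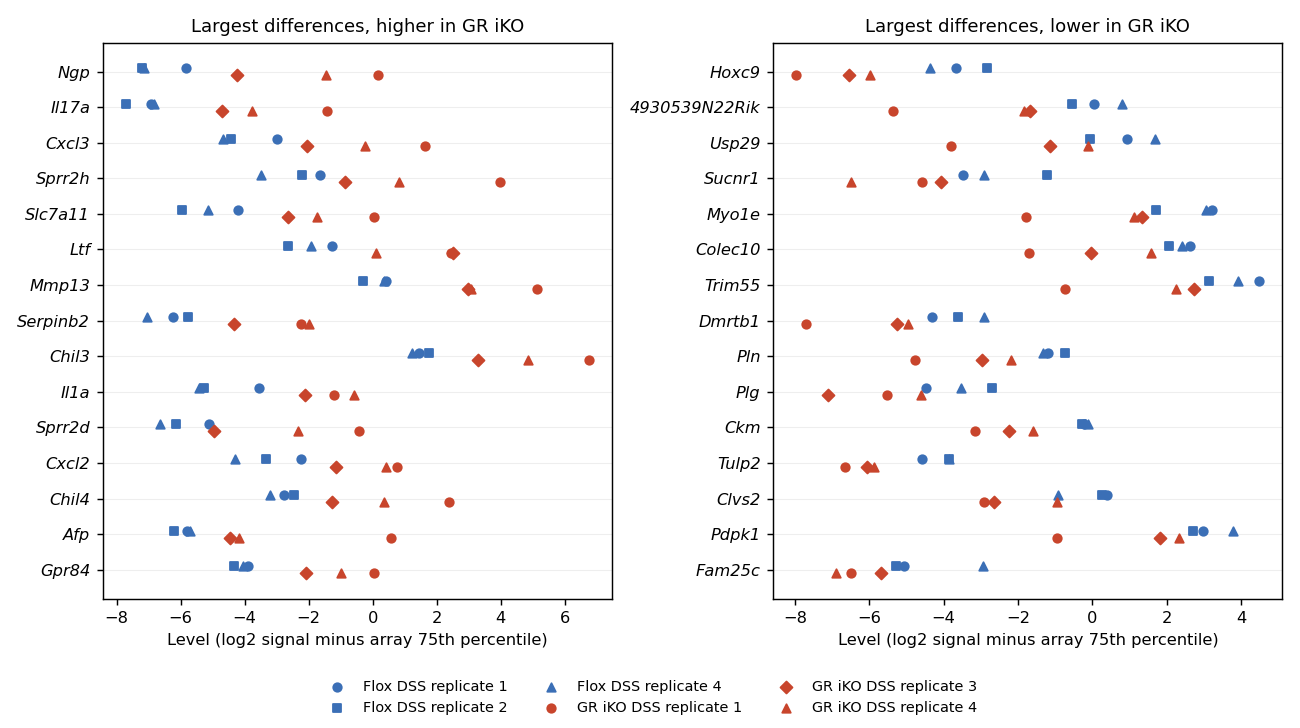
Level (log2 signal minus the array's 75th percentile) on each of the 6 DSS arrays for the 15 genes with the largest difference in each direction among genes whose groups do not overlap, with blue Flox DSS, red GR iKO DSS and 1 symbol for each replicate. GR iKO DSS replicate 1 is often the most extreme array, as for Afp at 0.58 and 4930539N22Rik at −5.38. Spike-in scaling cannot turn the direction of these genes, since the 1.26 that it adds is smaller in size than every lower difference shown.

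Cytokines were the third group higher in GR iKO DSS, with 13 of 19 measured genes higher without overlap, 0 lower and a median difference of 2.19. Il17a, the neutrophil-mobilizing cytokine of Th17 cells and gamma delta T cells, was at −6.94, −7.71 and −6.84 in Flox DSS, not well above background, and at −1.42, −4.69 and −3.79 in GR iKO DSS. By this bound Il17a was at least 4.09-fold higher, but its difference was 0.73 with normexp background correction, against 3.86 in the main setting. Among the interleukin 1 genes, Il1a stood at −3.56, −5.26 and −5.42 against −1.21, −2.11 and −0.60 (difference 3.44, SE 0.60). Il1b, the inflammasome-processed ligand, stood at 3.0, 2.62 and 1.94 against 5.37, 3.75 and 5.31 (difference 2.29), and Il1rn, the receptor antagonist that opposes both, was higher by 2.16.

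Il11, an interleukin 6 family cytokine made by stromal cells, was among the most even of the differences. It stood at −0.85, −0.54 and −0.44 against 1.83, 2.14 and 1.24, a difference of 2.35 (SE 0.27) with a gap of 1.68. Inhba, which encodes the activin A subunit, stood at −0.95, −1.39 and −0.91 against 1.96, 0.75 and 2.08, a difference of 2.68 (SE 0.39). Tnf was at 0.23, −1.87 and −1.38 against 0.89, 1.19 and 1.91 (difference 2.34), and Il6 was higher by 1.37 without overlap. Osm, Il12a and Il17f differed by 1.96, 2.22 and 2.19 without overlap, and Il10, not well above background in Flox DSS, was at least 1.64-fold higher. Ifng, the Th1 cytokine, and Il22, which supports epithelial repair, had large differences of 2.27 and 2.90, but their groups overlapped, and the epithelial alarmins Il18, Il33 and Tslp overlapped at 0.78, 0.16 and −0.58. The cytokine median was 1.66 without Flox DSS replicate 2 and 0.96 with normexp background correction. Il17a and Il10 passed the background filter only through GR iKO DSS, so their lack of overlap is partly set by that filter. Cytokines higher without overlap numbered 8 with normexp, and also 8 among genes well above background on all 6 arrays.

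Inhibitors that NF-kB itself induces were higher as well, by smaller amounts. Of 15 measured genes of the pathway and its feedback, 8 were higher without overlap and 0 lower, with a median difference of 0.73. Tnfaip3, the deubiquitinase A20 that shuts the pathway down, stood at 2.51, 1.97 and 2.12 against 4.12, 3.36 and 3.54 (difference 1.48). Nfkbid differed by 1.27, Zc3h12a (the RNase regnase-1) by 1.25, Nfkbiz by 1.11, Nfkbie by 0.94, Tnip1 by 0.75, Birc3 by 0.73 and Nfkbia by 0.72, the last with a gap of 0.02. The subunits Rela, Relb and Nfkb2 differed by 0.14, 0.16 and 0.07 with overlapping groups. The NF-kB consensus was found in the promoters of 7 of the 13 genes of the list that are in the table.

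Several matrix metalloproteinases, which cut collagen and other matrix proteins, separated the groups widely. Mmp13, an interstitial collagenase, had the widest gap of all genes, 2.57, with levels of 0.42, −0.32 and 0.34 in Flox DSS and 5.14, 2.98 and 3.05 in GR iKO DSS. Its difference was 3.58 (SE 0.60), against 0.09 on water. Mmp10 (stromelysin 2) stood at 0.60, 0.19 and 1.12 against 4.15, 2.82 and 3.09, a difference of 2.72 (SE 0.41). Mmp25 and Mmp9, carried by neutrophils, differed by 1.93 and 1.58, and Mmp14 by 0.43, all without overlap. By contrast Mmp3 (stromelysin 1), at 6.10, 5.72 and 4.17 against 6.22, 5.42 and 5.15, overlapped between the groups. The inhibitor Timp1 differed by 0.69 with overlap, and Timp2 was lower without overlap, by 0.95, a difference that turns positive with spike-in scaling. In all, 5 of 14 measured genes of this list were higher without overlap and 1 lower, with a median of 0.57.

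The 3 proteinase promoters are shown because they hold the same short AP-1 motif, TGANTCA, although Mmp3 did not separate the groups. They are the 150 bases before the start of Mmp13 (chr9:7272364-7272513), Mmp10 (chr9:7502192-7502341) and Mmp3 (chr9:7445672-7445821) on the + strand of GRCm38.p6 from RefSeq, with the motif in capitals.
Mmp13: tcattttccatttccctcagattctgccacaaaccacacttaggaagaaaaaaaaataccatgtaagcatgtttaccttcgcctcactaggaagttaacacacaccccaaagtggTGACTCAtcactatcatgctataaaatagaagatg
Mmp10: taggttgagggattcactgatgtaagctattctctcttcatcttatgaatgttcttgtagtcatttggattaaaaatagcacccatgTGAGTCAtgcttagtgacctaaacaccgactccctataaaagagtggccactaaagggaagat
Mmp3: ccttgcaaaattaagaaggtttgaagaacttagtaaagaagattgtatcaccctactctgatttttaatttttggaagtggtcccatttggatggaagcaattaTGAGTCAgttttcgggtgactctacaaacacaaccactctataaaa
The motif begins 35, 63 and 46 bases before the start of Mmp13, Mmp10 and Mmp3. On both strands of the 250 bases searched it was found in 6.75% of all promoters. By gene it was found for 6 of the 15 largest higher genes (Il17a, Il1a, Mmp13, Serpinb2, Sprr2d and Sprr2h) and for 7.82% of all genes. It was also found for 2 of the 10 largest lower genes in the table (Fam25c and Sucnr1), and the NF-kB consensus for 2 of the 15 largest higher genes and for 3 of 16 smooth muscle genes. Among the 11 proteinases and inhibitors in the table the AP-1 motif was found for Mmp13 and Mmp10, with differences of 3.58 and 2.72, and for Mmp7 and Mmp3, whose groups overlapped at 1.19 and 0.27.

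Macrophage genes as a group stood near the background. Of 20 measured, 3 were higher without overlap and 0 lower, and the median difference of 0.30 went to −0.02 without GR iKO DSS replicate 1. The higher genes numbered 5 without Flox DSS replicate 2 or without GR iKO DSS replicate 3 or 4, and 3 were lower without Flox DSS replicate 4, where the median was 0.09. With these arrays left out in turn, 12.4%, 22.7% and 14.8% of all genes were higher. Without Flox DSS replicate 4, 23.1% of all genes were lower. The surface marker Adgre1 (F4/80) was at 1.85, 2.64 and 1.60 in Flox DSS and at 2.55, 1.63 and 1.74 in GR iKO DSS, and Cd68 and Csf1r overlapped at 0.50 and 0.45. Complement C1qa, C1qb and C1qc and the scavenger receptors Mrc1 and Cd163, typical of resident macrophages, had differences between −0.46 and −0.07. Chil3, a chitinase-like protein of activated myeloid cells, was the exception, at 1.44, 1.75 and 1.23 against 6.75, 3.28 and 4.84 (difference 3.48). Cd14, the lipopolysaccharide co-receptor, differed by 1.96 and the scavenger receptor Marco by 1.73. Nos2, the inducible nitric oxide synthase, overlapped at 1.36.

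Among the CC chemokines, which attract monocytes and lymphocytes, 2 of 16 were higher without overlap. They were Ccl3, at 0.10, −0.81 and −1.68 against 2.57, 0.63 and 3.28 (difference 2.95), and Ccl4, at 2.45 with a gap of 0.03. The monocyte attractants Ccl2 and Ccl7 overlapped at 0.94 and 0.71. The higher genes of the list became 6 without GR iKO DSS replicate 4 and 5 without Flox DSS replicate 1 or 4. Of all genes, 10.8% were higher without overlap on the 6 arrays, near the share in this list. This was 14.8% without GR iKO DSS replicate 4, 13.5% without Flox DSS replicate 1 and 21.0% without Flox DSS replicate 4. Ccl12 was lower, by 0.87, with arrays that nearly touched and a sign that turned under spike-in scaling.

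For lymphocyte and interferon genes most groups overlapped. All 17 interferon gamma response genes had a positive difference (median 0.90), but 15 overlapped, and the median was −0.65 within slide 1 and 2.56 within slide 4. The count without overlap depended on single arrays, with 10 of 17 higher without Flox DSS replicate 1 (median 1.52) or without GR iKO DSS replicate 3 (median 1.27), while the median was 0.35 without Flox DSS replicate 4 and 0.58 without GR iKO DSS replicate 4. Cxcl9, an interferon-induced T cell attractant, was one of the 2 that did not overlap, at 1.43, −0.14 and −0.12 against 4.10, 2.19 and 3.57 (difference 2.90), and Irf8 was the other. Of 15 T and NK cell genes 2 were higher without overlap (median 0.80, or 0.01 with normexp), namely the kinase Lck and the cytotoxic protease Gzmb, at 0.86 and 1.13, and with 1 array left out this count was 2 to 9, the 9 without GR iKO DSS replicate 4. In the MHC class II list 1 of 8 genes, Ctss, was higher without overlap (median 0.59), against 5 without Flox DSS replicate 2 and a median of 0.27 without Flox DSS replicate 4. The 12 B and plasma cell genes had a median of 1.83 with no gene free of overlap, and that median was 4.38 within slide 1 and −2.41 within slide 4. Without GR iKO DSS replicate 4, 8 of these genes were higher without overlap (median 2.90), and without Flox DSS replicate 4, 6 were (median 2.76), while the median was 1.08 without Flox DSS replicate 1 or GR iKO DSS replicate 3. Of all genes, 10.8% were higher without overlap on the 6 arrays, near the interferon, T and NK cell and MHC class II shares. This was 13.5%, 12.4% and 21.0% without Flox DSS replicates 1, 2 and 4 in turn. It was 22.7% and 14.8% without GR iKO DSS replicates 3 and 4 in turn.

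**Figure D4:**
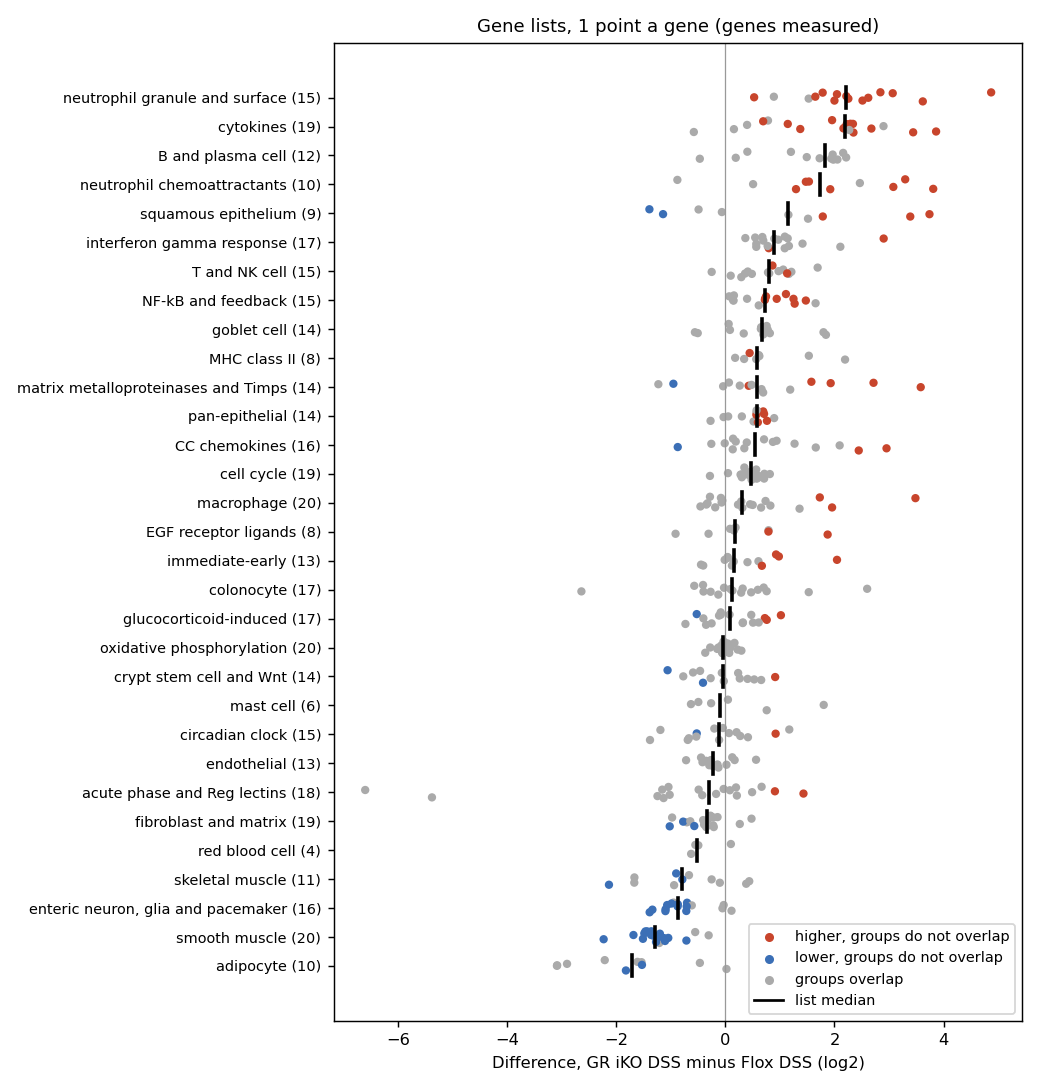
Difference between GR iKO DSS and Flox DSS (horizontal, log2) for every measured gene of 31 lists, 1 point per gene, red or blue where the 3 arrays of the groups do not overlap and grey where they do, with a bar at the list median. Neutrophil and cytokine genes lie to the right and muscle and enteric nerve genes to the left of 0, although with spike-in scaling the enteric nerve and skeletal muscle medians turn positive.

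In the epithelium, where GR was deleted, markers common to all epithelial cells were higher for some genes and lower for none. Of 14 measured, 5 were higher without overlap and 0 lower, with a median of 0.57, and without Flox DSS replicate 4 or GR iKO DSS replicate 1 the higher genes were 10 and 8. With these arrays left out in turn, 21.0% and 15.1% of all genes were higher. The list averaged 4.88, 4.70 and 5.28 on the Flox DSS arrays, 5.14, 5.39 and 5.72 on the GR iKO DSS arrays and between 5.36 and 5.55 on water, so the list mean overlapped between the groups. The adhesion molecule Epcam differed by 0.71, the claudins Cldn7 and Cldn3 by 0.69 and 0.60, and villin (Vil1) by 0.57. Hnf4a differed by 0.76 on its brightest probe and by −0.03 on another.

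All 17 colonocyte genes and all 14 goblet cell genes overlapped on the 6 arrays, with medians of 0.13 and 0.67, but this depended on single arrays. Without Flox DSS replicate 4, 7 of 14 goblet cell genes (median 1.46) and 5 of 17 colonocyte genes (median 0.39) were higher without overlap. The share over all genes was then 21.0%. The goblet cell median was 0.11 without GR iKO DSS replicate 3, and the colonocyte median was −0.14 without GR iKO DSS replicate 4. The goblet cell mucin Muc2 was at 4.91, 5.30 and 7.09 against 5.40, 7.52 and 6.43, and its high arrays were Flox DSS replicate 4 and GR iKO DSS replicate 3. Crypt stem cell and Wnt genes had 1 higher (Ephb2, 0.91) and 2 lower genes of 14 without overlap (Nkd1, −1.06, and Lrig1, −0.41, both turned by spike-in scaling), and Lgr5 overlapped at −0.46. Without Flox DSS replicate 4 these counts were 3 and 4, and 4 were lower without GR iKO DSS replicate 1 or 3. Of all genes, 21.0% were higher and 23.1% lower without Flox DSS replicate 4. Without GR iKO DSS replicate 1 and replicate 3, 17.5% and 21.2% of all genes were lower. None of 19 cell cycle genes separated the groups (median 0.47), and GR iKO DSS replicate 3 had the lowest mean level of the 6 arrays, −0.04. Without that array 17 of the 19 were higher without overlap (median 0.99), as were 22.7% of all genes.

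Genes of squamous epithelium included some of the largest differences. Sprr2h, a small proline-rich protein of the cornified envelope, stood at −1.65, −2.20 and −3.48 against 3.96, −0.87 and 0.80 (difference 3.74). Sprr2d and Sprr1a differed by 3.39 and 1.79 without overlap. Of the 16 genes listed 9 were measured, and 3 of these were higher, or 5 without Flox DSS replicate 4 or GR iKO DSS replicate 3. With these arrays left out in turn, 21.0% and 22.7% of all genes were higher. In the same list the basal keratins Krt5 and Krt17 were lower without overlap, by 1.14 and 1.39, of which Krt5 turns positive with spike-in scaling.

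Genes that glucocorticoids induce had a median difference of 0.08 on DSS. Of 17 measured, 3 were higher and 1 lower without overlap, near the share over all genes, and without GR iKO DSS replicate 4 these counts were 6 and 3. Without that array 14.8% of all genes were higher and 19.9% lower. Fkbp5, a chaperone that feeds back on GR, was at 0.80, 0.25 and 1.52 against −0.42, −0.33 and 1.14 on its brightest probe and had the opposite sign on its other 2 probes. Tsc22d3 (GILZ) differed by 0.08 and Dusp1, a MAP kinase phosphatase, by 0.32, both with overlap. Per1 was lower on every GR iKO DSS array, by 0.52 with a gap of −0.05, and this turned with spike-in scaling. Mt1 (metallothionein 1) was higher on DSS, at 5.73, 5.33 and 6.08 against 7.10, 6.22 and 6.87, a difference of 1.02, whereas on water it was 2.89, and its second probe gave 1.97 on DSS with overlapping groups. Ddit4 was higher by 0.76 without overlap.

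Of the acute phase genes and Reg lectins, Saa3 and the ferroxidase Cp were higher without overlap, by 1.43 and 0.91. The Reg lectins gave the most scattered values. Reg1 stood at 6.17, 5.0 and 9.51 in Flox DSS and at −4.37, 6.93 and −1.68 in GR iKO DSS, so that a difference of −6.60 came with overlapping groups. Reg3a followed the same arrays (difference −5.38), and both were low on the 2 arrays where the acinar genes were low. Among the EGF receptor ligands, Nrg1 stood at −3.64, −3.89 and −3.51 against −1.37, −2.09 and −1.94 (difference 1.88), and Tgfa was higher by 0.79, while 4 ligands were higher without Flox DSS replicate 4. Without that array 21.0% of all genes were higher. One of the other 3 Nrg1 probes overlapped, at 0.44.

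The clearest group of lower genes was that of smooth muscle. All 20 measured genes had a negative difference, 17 of them without overlap, and the median was −1.30. The contractile genes Myh11, at 6.35, 6.15 and 6.59 against 4.09, 5.87 and 5.05, and Myl9, at 8.68, 8.28 and 9.11 against 6.35, 7.72 and 7.47, differed by −1.36 and −1.51. Smtn (smoothelin), at 3.36, 3.33 and 3.09 against 0.90, 1.88 and 1.94, had the widest gap of the list, −1.14. The calcium pump regulator Pln differed by −2.23, Des by −1.48, Acta2 by −1.32, and Ckb and Cav3, which are abundant in muscle, by −1.62 and −1.45. Within slides the list median was −0.85 and −1.13. With spike-in scaling it was −0.04, or 1.32 below that of all probes, and no gene of the list was then free of overlap. Levels on water averaged 2.37 to 2.97, near the 2.27, 3.22 and 3.01 of GR iKO DSS, while Flox DSS stood at 4.10, 3.98 and 4.17.

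Genes of enteric neurons, glia and pacemaker cells followed, with 11 of 16 lower without overlap, 0 higher and a median of −0.87 (0.39 with spike-in scaling, 0.89 below the median of all probes). Nos1, the neuronal nitric oxide synthase, was at −3.11, −3.77 and −3.77 against −5.01, −4.81 and −4.98 (difference −1.39, SE 0.24). The glial protein S100b was at 2.55, 2.31 and 2.34 against 0.38, 1.26 and 1.56 (difference −1.34). Sox10 and Gfap of glia and Elavl4, Tubb3 and Stmn2 of neurons were lower without overlap, by amounts between −1.10 and −0.70 that turn positive with spike-in scaling, whereas Vip and Ano1 overlapped at −0.03 and −0.05.

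Skeletal muscle genes had 3 of 11 lower, among them the muscle creatine kinase Ckm at −0.23, −0.27 and −0.10 against −3.16, −2.25 and −1.59 (difference −2.13), but the list median of −0.79 turned to 0.47 with spike-in scaling and to −0.25 over genes well above background on all 6 arrays. Fibroblast and matrix genes had 3 of 19 lower without overlap and a median of −0.34 (0.92 with spike-in scaling), and no endothelial gene of 13 separated the groups on the 6 arrays (median −0.22, or 1.04 with spike-in scaling). These counts depended on GR iKO DSS replicate 3, without which 8 of 11 skeletal muscle genes, 12 of 19 fibroblast genes (median −0.57) and 10 of 13 endothelial genes (median −0.56) were lower without overlap. Without Flox DSS replicate 4 the fibroblast count was 7, and without GR iKO DSS replicate 1 it was 5 and the endothelial median 0.10. Of all genes, 13.9% were lower without overlap on the 6 arrays, near the fibroblast share there. This was 21.2% without GR iKO DSS replicate 3, 23.1% without Flox DSS replicate 4 and 17.5% without GR iKO DSS replicate 1.

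The remaining genes at the top of the rankings belong to no list. Slc7a11, the cystine and glutamate exchanger, stood at −4.22, −5.96 and −5.14 against 0.05, −2.65 and −1.73, a difference of 3.67 (SE 0.75). Gpr84, a fatty acid receptor of myeloid cells, differed by 3.08, Cemip, which breaks down hyaluronan, by 2.91, and Ocstamp, an osteoclast fusion protein, by 2.49. Serpinb2 (plasminogen activator inhibitor 2), Slamf1 (a lymphocyte receptor) and Afp (the fetal serum protein) were at least 5.57-fold, 3.80-fold and 6.27-fold higher. These genes passed the background filter only through GR iKO DSS, so their lack of overlap is partly set by that filter. With normexp background correction their differences were 0.81, 0.40 and 1.17, below the log2 bounds of 2.48, 1.93 and 2.65. For Afp the difference of 3.23 was 1.60 without GR iKO DSS replicate 1, which stood at 0.58, whereas the other 2 arrays were at −4.44 and −4.17 against −5.80, −6.22 and −5.71.

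Hoxc9, a homeobox gene of positional identity, was at −3.68, −2.83 and −4.38 in Flox DSS against −7.96, −6.54 and −5.98 in GR iKO DSS, where it was not well above background, and so was at least 4.32-fold lower. Tulp2 and Fam25c were at least 3.11-fold and 2.46-fold lower by the same measure. Hoxc9, Tulp2 and Fam25c passed the background filter only through Flox DSS, so their lack of overlap is partly set by that filter. With normexp background correction Hoxc9, Tulp2 and Fam25c differed by −1.09, −0.74 and −0.64, smaller in size than the log2 bounds of 2.11, 1.64 and 1.30. Sucnr1 (the succinate receptor), Ptn (the growth factor pleiotrophin) and Cst12 differed by −2.50, −1.76 and −1.49. For 4930539N22Rik, Usp29, Myo1e, Colec10, Trim55 and Pdpk1 the lowest array was GR iKO DSS replicate 1 each time. Single probes carried some of these names, since the other probes gave 0.48 and 0.74 for Myo1e, 0.17 and 0.28 for Pdpk1, −0.11 for Dmrtb1 and −0.81 for Plg.

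Whether the genotype difference on DSS exceeds that on water was tested in 1 fit of all 14 arrays. This interaction was called for 73 of 27428 probes (0.266%), 56 of them with a more positive difference on DSS. Named genes among them were Ltf, Mmp13, Il1a, Gpr84, Slamf1, Mmp10, Il11, Cemip, Inhba and Nfkbid. Il11 had the smallest adjusted p (0.0257, limma), with a genotype difference of 2.35 on DSS and −0.09 on water. Slamf1 was well above background in GR iKO DSS but not in Flox DSS, so its size rests on surrogate values. Of the lists, 5 cytokines, 2 metalloproteinases, 2 smooth muscle genes, 1 neutrophil gene (Ltf) and 1 NF-kB feedback gene (Nfkbid) were called. No probe was called with slide as a block, 1 without Flox DSS replicate 2, and 2414 without Flox DSS replicate 4.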

How the data were processed

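Colon RNA of 14 mice was hybridized to 1-colour Agilent whole mouse genome arrays on 4 slides. The deposited scanner files hold intensity values per spot, which the authors extracted with Agilent Feature Extraction 12.0.0.7, and the processed intensity is background-subtracted with low values raised to a positive surrogate, which shrinks differences of dim probes. The deposited value table holds log2 values with a median of 6.05 on every array, was treated as quantile-normalized, and served as an alternative. Per the labels Partek 6.6 was used, and the study's array statistics are not given in the sources used here.

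Values were log2 processed intensities minus the array's 75th percentile, over spots of the same probe averaged after control spots and flagged outliers were left out. Probes flagged well above background by the scanner software on 3 or more DSS arrays were tested (27428, of which 80 lacked a value on some DSS array, 24196 were above background on all 6 arrays and none was saturated). The 75th percentile was 430, 675 and 262 intensity units in Flox DSS and 713, 559 and 493 in GR iKO DSS. The number of arrays limits the precision of every value. Of all probes, 65.8%, 65.8% and 62.6% were well above background in Flox DSS, against 66.8%, 68.3% and 67.1% in GR iKO DSS. Fewer probes thus counted as well above background on each Flox DSS array, which bears on the bounds. Gene symbols came from RefSeq accessions (28223 of 29245 matched, GRCm38.p6), and the array grid is on another build, so only promoter coordinates are given.

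GR iKO DSS was compared with Flox DSS with limma 3.58.1 in R 4.3.3 (lmFit, eBayes, two-sided, Benjamini-Hochberg, adjusted p under 0.05) on the 6 arrays, and the genotype by DSS interaction on all 14. Scripts were tested on simulated data. Members and gene lists were chosen with earlier results of these data known. Named genes were all Nr3c1 probes, the 15 largest differences and 10 widest gaps in each direction among genes whose groups did not overlap, up to 4 genes of each list by size, genes that define a cell type, and 10 genes that the study measured. Further list members are named as examples chosen after their values were seen. Alternatives were quantile, spike-in and normexp (offset 50, on median rather than mean signals) values, the value table, filters, array weights, an intensity trend, slide or replicate number as a block, and leaving out each array.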

Additional observations from a re-analysis of the deposited data

Results flagged for a closer look

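For 10 named genes the genotype difference on DSS differed from that on water in limma's interaction test over 14 arrays, with adjusted p between 0.0257 and 0.0470. The genotype difference on DSS minus that on water was 4.24 for Ltf, 3.67 for Il1a, 3.49 for Mmp13, 3.14 for Gpr84, 3.12 for Cemip, 3.10 for Slamf1, 2.74 for Inhba, 2.43 for Il11, 2.32 for Mmp10 and 1.32 for Nfkbid. For each of these genes all 3 GR iKO DSS arrays were above all 3 Flox DSS arrays. All of them except Nfkbid were named from rankings of genes without overlap, so their separation was set by that choice. Each was called in 4 or 5 of the 6 fits that left out 1 DSS array. When water arrays and DSS arrays were weighted separately, their adjusted p was between 0.0734 and 0.123, and with slide as a block between 0.112 and 0.120. Il1a and Gpr84 had no water array with a signal well above background, and Slamf1 had no such signal in Flox DSS, so these values rest in part on surrogate signals. Slamf1 thus passed the background filter only through GR iKO DSS. Ltf was well above background on 1 Flox and 0 GR iKO water arrays, so its water difference of −0.62 also rests largely on dim signals.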

How the results depend on the processing

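Between the genotypes on DSS, limma called 0 probes, while 4763 had an unadjusted p under 0.05. It also called 0 with quantile or normexp values, the deposited value table, either filter, slide as a block, an intensity trend and each array left out in turn (0 to 0 called, 2518 to 5993 at an unadjusted p under 0.05). Calls appeared with spike-in scaling (5273), array quality weights (2875), 14 arrays with a shared spread (4036) and, added after the data were seen, separate weights (9). The interaction, 73 probes in the main setting, was called for 230 with quantile values, 18094 with spike-in scaling, 238 with the value table, 0 without a filter, 237 with the filter on all 6 arrays, 0 with slide as a block, 3326 with quality weights, 251 with an intensity trend, 1 with separate weights and 5128 without Flox DSS replicate 4 and GR iKO DSS replicate 3. Leaving out 1 array gave 1 to 2414 (65 without GR iKO DSS replicate 1, 138 without Flox DSS replicate 1, 473 without GR iKO DSS replicate 4, 2305 without GR iKO DSS replicate 3). At least 2-fold without overlap, 608 probes were higher and 698 lower; these became 12639 and 6 with spike-in scaling, 249 and 216 with normexp, 562 to 1416 and 406 to 1497 with 1 array left out, and 1867 and 2142 with both of those arrays left out (503 and 665 shared with the main counts), while without a filter 1252 were lower. Fewer arrays make overlap less likely by construction. Nr3c1, at −0.83, was 0.42 with spike-in scaling (exact p = 0.5), which is below the 1.28 of all probes, and −0.93 to −0.74 with 1 array left out. The causes of these shifts were not tested. Replicate numbers 1 and 4 occur in both DSS groups, and deviations of same-numbered arrays correlated at 0.21 and −0.06. Arrays of different number correlated between −0.24 and 0.23. With 3 arrays per group these values cannot settle whether the numbers pair the mice. With the replicate block limma called 0 probes on DSS (smallest adjusted p 0.0659) and 0 for the interaction, and Nr3c1 was −0.75. Among named genes, 18 changed sign under some setting other than spike-in scaling. No gene named by rank did, but for left-out arrays, blocks and array weights this follows from the choice of genes without overlap. With 3 mice per group and dim signals set to a surrogate, differences of dim probes are limited most.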

Other observations

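Gene groups outside inflammation and the tissue wall mostly overlapped between GR iKO DSS and Flox DSS. Of 13 immediate-early genes 4 were higher without overlap and 0 lower (median 0.15). Fosl1, an AP-1 subunit, stood at −4.52, −4.82 and −3.02 in Flox DSS against −0.71, −2.68 and −2.84 in GR iKO DSS (difference 2.05), and Atf3, Fos and Ier3 differed by 0.98, 0.93 and 0.67. The subunits Jun, Junb and Fosl2 overlapped at 0.15, 0.04 and −0.01. Of 15 circadian clock genes 1 was higher (Cry1, 0.92, which turned with normexp) and 1 lower (Per1), with a median of −0.11 that turned to 1.15 with spike-in scaling. None of 20 oxidative phosphorylation genes separated the groups, and their differences lay between −0.37 and 0.29, but without both Flox DSS replicate 4 and GR iKO DSS replicate 3 (2 arrays per group, tried after the values had been seen) 12 of them were higher without overlap, with a median of 0.34. Without GR iKO DSS replicate 3 alone, 3 oxidative phosphorylation genes were higher and 5 circadian clock genes lower without overlap, and without GR iKO DSS replicate 4 alone, 3 oxidative phosphorylation genes were lower. Of all genes, 22.7% were higher and 21.2% lower without GR iKO DSS replicate 3, and 19.9% lower without GR iKO DSS replicate 4.

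Adipocyte genes had a list median of −1.72, but 8 of 10 overlapped, and the median was 0.30 within slide 1 and −2.34 within slide 4. Without GR iKO DSS replicate 3, 9 of the 10 were lower without overlap (median −2.30), and without Flox DSS replicate 1, 6 were. With these arrays left out in turn, 21.2% and 16.1% of all genes were lower. Adipoq, the fat cell hormone adiponectin, stood at 1.55, 3.54 and 2.65 against −1.56, 1.92 and −1.87. The 4 red blood cell genes and the 6 mast cell genes all overlapped, with medians of −0.52 and −0.11 that turn positive with spike-in scaling. The 17 pancreatic acinar genes had differences from −8.65 to −1.88, all with overlap, and 11 of the 20 largest lower differences of all genes came from that list, whereas none of the 20 largest higher differences came from groups that overlapped.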
